A study of Homo sapiens with 18 samples.

Results

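NOX5, the gene SPESP1 that overlaps it on chromosome 15, and the oxidase genes NOX4, CYBA, CYBB and DUOX1 were followed in 2 uveal melanoma cell lines treated with inhibitors of the histone methyltransferase EHMT2. They are 6 of the 26475 gene symbols in the deposited table. NOX5 was chosen because it was higher with both inhibitors in both lines, so its change against DMSO is described here without a test. The other 5 were chosen for their overlap with NOX5 or for their membership of the same enzyme family. Mel92.1 and MP41, both established from human uveal melanoma, a melanocyte-derived tumor of the eye, were grown for 48 h with DMSO as the vehicle, with UNC0642 at 1 µM or with A366 at 1 µM. Each of the 6 groups holds 3 libraries of bulk RNA, described by the submitters as biological replicates, so the p-values below measure the spread between these cultures. The labels name no genetic change in any group, and DMSO was the only control.

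NADPH oxidases are membrane enzymes that pass electrons from NADPH across a membrane to oxygen, which yields superoxide or hydrogen peroxide. NOX5 is the calcium-regulated member of the family: EF hands at its amino terminus bind calcium, and it works without the partner subunits that its relatives need. NOX4 makes mostly hydrogen peroxide and is held at the membrane by p22phox, the product of CYBA, which also stabilizes the phagocyte oxidase encoded by CYBB. DUOX1 carries a peroxidase-like domain and is known from airway and thyroid epithelium, and SPESP1 encodes a protein of the sperm acrosome. EHMT2, also called G9a, methylates histone H3 on a lysine linked to gene silencing, and UNC0642 and A366 inhibit it together with its relative EHMT1.

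The 18 libraries held between 23601156 and 62941462 expected counts, with a median of 41955693, and the lowest was Mel92.1 UNC0642 replicate 1, in which 4 ribosomal RNA genes also took the largest share, 32.8% of the counts against 3.31% to 19.5% in the other 17. The A366 libraries labelled replicates 2 and 3, 4 in all, went against their labels and bear on every A366 result. They were checked with 16 genes specific to the DMSO libraries of Mel92.1 and 24 specific to those of MP41, each at 20 CPM or more in one line and at most 0.05 CPM in the other. The libraries labelled A366 replicates 2 and 3 of either line held at most 0.0392% of the level of their own line's genes and 92.8% to 116% of that of the other line's genes. The other 14 libraries held 65.1% to 115% of their own line's genes and at most 0.260% of the other's. These 4 libraries are therefore placed in the other line here, as a listing of the study's own libraries also places them, and the members' A366 results and the counts of called genes that rest on them are also given as labelled and without them. Genes of the melanocyte lineage (PMEL, MLANA, TYR, TYRP1, DCT, MITF and SOX10) summed to between 15000 and 24400 CPM (counts scaled to library size) in all 18 libraries. In bulk RNA, fewer cells that express a gene and less of its RNA per cell cannot be told apart.

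In the GENCODE release 29 annotation of GRCh38, NOX5 (ENSG00000255346.9) spans chr15:68930525-69062743 on the plus strand and SPESP1 (ENSG00000258484.3) spans chr15:68818221-68946811 on the same strand. The spans share 16287 bp. Their exons share 193 bases in 1 stretch, chr15:68930525-68930717, which is 1.54% of the 12511 exonic bases of NOX5 and 12.2% of the 1588 of SPESP1. Of the 9 annotated NOX5 transcripts, 3 start inside SPESP1 and 6 past it, and the first of those starts lies 84170 bp downstream of the shared one, at position 69014695. RefSeq lists the long form as a separate read-through gene, SPESP1-NOX5, for which the deposited table has 0 rows, so counts of that form would stand under NOX5 or SPESP1 if they were counted at all. Counts per gene do not show which start was used. NOX5 also overlaps 3 annotated RNAs outside the table, of which AC027088.3 is antisense, and whether the counting used the strand is not given in the sources used here.

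**Figure D1:**
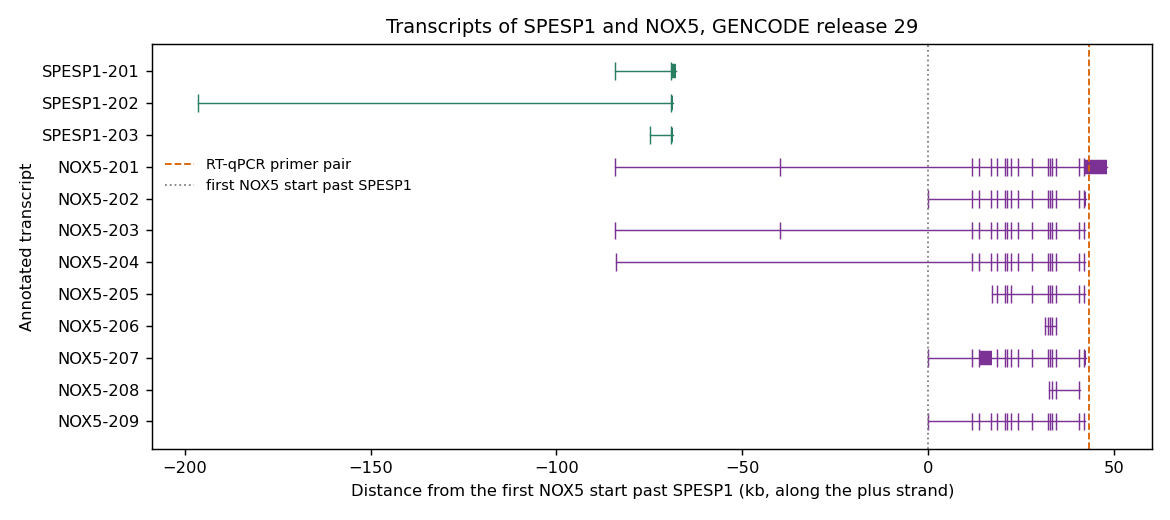
Annotated transcripts of SPESP1 (green, 3) and NOX5 (purple, 9), drawn with exons as boxes or ticks and introns as lines, against distance in kb from the first NOX5 start past SPESP1. The dashed line marks the RT-qPCR primer pair, which falls in 1 of the 9 NOX5 transcripts, and 3 of the 9 begin upstream, inside SPESP1.

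Both promoter windows are shown because NOX5 transcripts can begin at either place and the windows differ in CG content. Each runs from 250 bases before to 50 bases after a RefSeq start on GRCh38.p14, plus strand, with every CG in capitals.
NOX5 own start, chr15:69014445-69014744: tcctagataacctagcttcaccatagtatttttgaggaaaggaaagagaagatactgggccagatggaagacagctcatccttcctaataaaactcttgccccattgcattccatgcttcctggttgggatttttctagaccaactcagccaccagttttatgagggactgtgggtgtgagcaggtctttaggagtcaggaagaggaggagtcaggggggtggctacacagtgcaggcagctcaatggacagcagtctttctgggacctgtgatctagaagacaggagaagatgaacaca
SPESP1 start, chr15:68930275-68930574: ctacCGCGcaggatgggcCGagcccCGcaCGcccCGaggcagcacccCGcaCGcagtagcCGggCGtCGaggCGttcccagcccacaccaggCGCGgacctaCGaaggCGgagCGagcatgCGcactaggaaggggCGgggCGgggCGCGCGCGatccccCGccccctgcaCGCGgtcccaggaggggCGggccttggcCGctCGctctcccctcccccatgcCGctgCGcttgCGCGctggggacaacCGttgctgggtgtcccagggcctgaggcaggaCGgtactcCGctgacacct
The window at the start of NOX5 itself held 0 CG dinucleotides and 48.0% G or C. As few occurred in 3.96% of the 35116 promoter windows of the same length, whose median was 14 CG and 58.7% G or C. The window at the RefSeq SPESP1 start, which is also the first base of the stretch shared with NOX5, held 37 CG and 75.0% G or C, and 90.1% of all windows held as few. The windows of the other 4 genes held 28 CG for NOX4, 23 for CYBA, 35 for DUOX1 and 1 for CYBB.

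The primers that the study used to measure NOX5 by RT-qPCR are shown because they report on only some of its transcripts.
NOX5 forward primer: gggcaggagggaacagcaga
NOX5 reverse primer: tgcaaggtggaggatgccca
They matched chr15:69057900-69057919 on the plus strand and chr15:69058058-69058077 on the minus strand, a product of 178 bp, and were found in NOX5-201, 1 of the 9 GENCODE transcripts and 0 of the 3 of SPESP1. The forward primer begins 1204 bp past the stop codon, in the 3′ untranslated region, and 739 bp past the end of the transcript that reaches next farthest. In GENCODE, NOX5-201 begins at the start shared with SPESP1, whereas RefSeq gives the long 3′ end to NOX5 with its own start as well, ending at position 69062762. All counts below are per gene and cover every annotated part.

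NOX5 was scarce in untreated Mel92.1 cells and higher with either inhibitor in both lines. In Mel92.1 with DMSO the 3 libraries held 21, 16 and 18 counts, or 0.430, 0.426 and 0.464 CPM scaled by trimmed mean of M-values. With UNC0642 they held 71, 165 and 208 counts, or 4.31, 4.22 and 3.90 CPM. With A366 they held 174, 229 and 223 counts, or 4.23, 4.99 and 4.52 CPM, where the last 2 come from replicates 2 and 3 of the group labelled MP41 A366. No treated library overlapped the DMSO libraries, and the 6 treated libraries of Mel92.1 lay within 3.90 and 4.99 CPM of each other. Mean levels were 0.440 ± 0.0209 CPM (SD, n = 3) with DMSO, 4.15 ± 0.217 with UNC0642 and 4.58 ± 0.382 with A366, 9.43-fold and 10.4-fold over DMSO. The fitted log2 changes were 3.22 (SE 0.23) and 3.37 (SE 0.23).

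In MP41 with DMSO, NOX5 stood at 328, 315 and 421 counts, or 7.09, 7.32 and 9.15 CPM. With UNC0642 it stood at 651, 649 and 622 counts, or 14.5, 13.5 and 14.8 CPM. With A366 it stood at 1168, 1020 and 873 counts, or 20.2, 20.5 and 18.8 CPM, where the last 2 come from replicates 2 and 3 of the group labelled Mel92.1 A366. The 3 groups of MP41 did not overlap, in the order DMSO, UNC0642, A366. Means were 7.85 ± 1.13, 14.3 ± 0.666 and 19.9 ± 0.916 CPM (SD, n = 3), or 1.81-fold and 2.53-fold over DMSO, and the fitted log2 changes were 0.86 (SE 0.11) and 1.31 (SE 0.11). Non-overlap with a higher level was common among all genes tested: in Mel92.1 UNC0642 gave it for 7.42% of genes and A366 for 8.52%, and in MP41 the shares were 9.46% and 31.4%. Since NOX5 was picked on these contrasts, nothing is read from those shares.

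**Figure D2:**
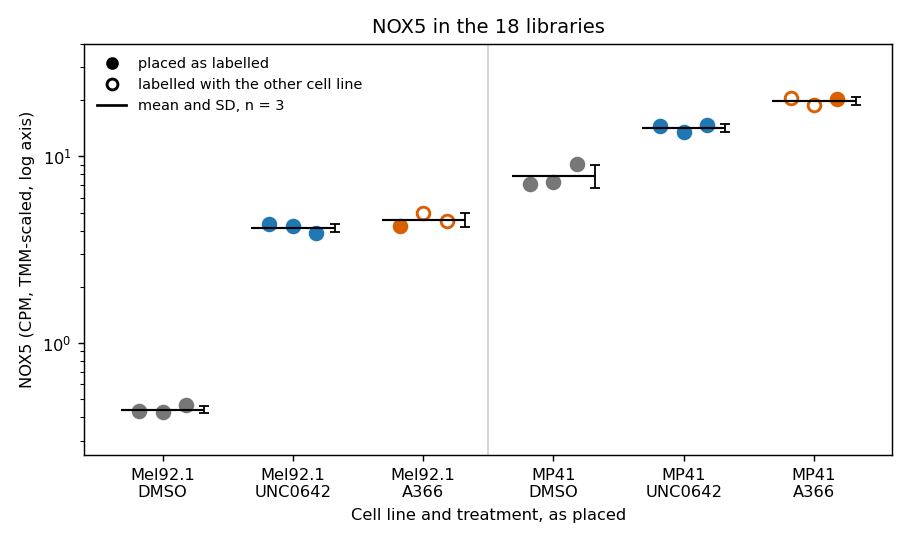
NOX5 in each of the 18 libraries in CPM on a log axis, by cell line and treatment, with the mean and SD of 3 libraries as a line and bar. Open circles are the 4 libraries labelled with the other line. In Mel92.1 the 6 treated libraries sit between 3.90 and 4.99 CPM, all above the 3 DMSO libraries, and below every MP41 library.

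As labelled, NOX5 with A366 was split between the lines: the group labelled Mel92.1 A366 held 4.23, 20.5 and 18.8 CPM and the group labelled MP41 A366 held 20.2, 4.99 and 4.52. The log2 changes with A366 were then 5.05 (SE 0.52) in Mel92.1 and 0.33 (SE 0.51) in MP41. Without the 4 libraries, A366 is left with 1 library in each line, assumed to vary like the others, and the changes were 3.25 (SE 0.44) and 1.32 (SE 0.15).

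The order of the 6 group means of NOX5, from the lowest, was DMSO, UNC0642 and A366 in Mel92.1, followed by the same 3 in MP41. Only the Mel92.1 groups with UNC0642 and A366 overlapped among neighbours in that order. The lowest MP41 library, at 7.09 CPM with DMSO, exceeded the highest treated Mel92.1 library, at 4.99 CPM, and the mean of MP41 with DMSO was 1.89-fold that of Mel92.1 with UNC0642 and 1.71-fold that of Mel92.1 with A366.

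Between the untreated lines, NOX5 was 17.9-fold lower in Mel92.1 than in MP41 by mean CPM (log2 difference -4.15, SE 0.16, adjusted p = 2.31e-13, edgeR quasi-likelihood test with Benjamini-Hochberg adjustment, as for every adjusted p below). This contrast was common: 69.4% of the genes tested differed between the lines with DMSO. All 5 members that could be tested were among them, with NOX5, NOX4 and CYBA lower and CYBB and DUOX1 higher in Mel92.1. NOX4 and CYBA had enough counts to be tested in MP41 but not in Mel92.1, and CYBB and DUOX1 the reverse. Those genes entered this comparison through the line where they were high, so nothing is read from their being called. Their adjusted p-values between the untreated lines, given below, are a description only. The share was 55.3% as labelled and 62.5% without the 4 libraries, and the NOX5 difference was -4.15 and -4.13 there.

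The difference of NOX5 from DMSO was larger in Mel92.1 than in MP41 with both inhibitors. The log2 change exceeded that in MP41 by 2.37 (SE 0.20, 95% interval 1.94 to 2.80, adjusted p = 7.49e-06) with UNC0642 and by 2.04 (SE 0.20, 95% interval 1.61 to 2.46, adjusted p = 2.23e-05) with A366. The choice of NOX5 used the rise in each line, not the difference between the rises. The difference is still computed from those same rises and libraries. The adjusted p-values of NOX5 in this test are thus not independent of the choice and serve as a description. Of all genes tested, 0.601% and 13.8% passed the same test of the difference. With the 4 libraries exchanged, NOX5 was the only member that passed in either, and CYBB, which has libraries at 0, DUOX1, NOX4 and CYBA had adjusted p between 0.496 and 0.820 with UNC0642 and between 0.563 and 1.00 with A366. Each of these 4 genes was near 0 counts in either Mel92.1 or MP41. The SEs of NOX4, CYBA and DUOX1 were 0.63 to 1.63, against 0.20 for NOX5. Their lack of a call therefore does not show that a difference between the lines is particular to NOX5. Without the 4 libraries the differences were 2.37 (adjusted p = 0.000584, with 0.335% of genes called) and 1.90 (adjusted p = 0.0293, with 1.24% called). As labelled they were 2.37 (adjusted p = 1.00, with 0.0% called) and 4.70 (adjusted p = 0.0047, with 49.4% called). As labelled, NOX4 (10.89, adjusted p = 0.0128) and CYBA (9.89, adjusted p = 0.0182) also passed with A366, and CYBB and DUOX1 did not (adjusted p = 0.0816 and 0.0941). Without the 4, the adjusted p of these 4 genes with A366 lay between 0.764 and 1.00.

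The 2 inhibitors, at the same dose and time, were compared for 3 genes in each line, 6 comparisons whose p-values were adjusted over all genes tested. They differed for NOX5 in MP41 and not detectably in Mel92.1. In MP41 the level with A366 was higher than with UNC0642 by 0.46 on the log2 scale (SE 0.10, 95% interval 0.23 to 0.68, adjusted p = 0.00431), and by mean CPM 1.39-fold. In Mel92.1 the difference was 0.15 (SE 0.21, 95% interval -0.31 to 0.61, adjusted p = 0.847), an interval that includes the MP41 value. As labelled the Mel92.1 difference was 1.83 (adjusted p = 0.167) and without the 4 libraries it was 0.03 (adjusted p = 1.00). In this comparison 43.1% of all genes tested passed in MP41 and 0.165% in Mel92.1. NOX4 and CYBA, given below, were the other members that passed in MP41, which makes 3 of 3 members tested there and 0 of 3 in Mel92.1. Without the 4 libraries the MP41 difference of NOX5 was 0.46 (adjusted p = 0.0283, with 34.4% of genes called), and as labelled it was -0.53 (adjusted p = 0.442, with 31.0% called).

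SPESP1 was at 0 counts in 17 of the 18 libraries and at 1 count in MP41 A366 replicate 1, a total of 1 count beside 7172 for NOX5. It lay below the filter on low counts in every fit and was not tested. A library at 0 allows up to 3 counts, which stood for 0.0519 to 0.182 CPM depending on the library and covers counting error only, so no change of SPESP1 was detectable at this depth. Markers of germ cells, where SPESP1 is known, were also near 0: PRM1 and TNP1 held 0 counts in all 18 libraries, and the 5 marker genes together reached at most 0.348 CPM. A read within the 193 shared exonic bases can belong to either gene, and how the counting divided such reads is not known.

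NOX4, which makes hydrogen peroxide without a stimulus, was found in MP41 and nearly absent from Mel92.1. In MP41 it held 1987, 1587 and 1812 counts with DMSO (43.0, 36.9 and 39.4 CPM). With UNC0642 it held 1858, 1951 and 1780 counts (41.3, 40.6 and 42.3 CPM), and with A366 3354, 2984 and 2725 (58.0, 60.1 and 58.7 CPM). The UNC0642 libraries lay within the range of the DMSO libraries, and the A366 libraries lay above both. With A366 in MP41, 31.4% of all genes tested lay above DMSO without overlap. The change was 0.05 on the log2 scale with UNC0642 (SE 0.07, 95% interval -0.10 to 0.21, adjusted p = 0.907). With A366 NOX4 rose by 0.54 (SE 0.07, adjusted p = 0.000346), and it was 0.49 higher with A366 than with UNC0642 (SE 0.07, adjusted p = 0.000462). In Mel92.1 NOX4 had 0 to 6 counts in each library, below the filter there. Between the untreated lines it was 987-fold higher in MP41 by mean CPM, against 5 counts in all in the 3 Mel92.1 libraries (log2 difference -9.86, 95% interval -10.97 to -8.75, adjusted p = 7.4e-16).

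CYBA, which encodes the p22phox partner of NOX4, followed the same division between the lines. In MP41 it held 939, 1017 and 941 counts with DMSO (20.3, 23.6 and 20.4 CPM), 982, 1354 and 900 with UNC0642 (21.8, 28.2 and 21.4 CPM) and 2551, 1591 and 2341 with A366 (44.1, 32.02 and 50.4 CPM). Only the A366 libraries were clear of the DMSO range, as for 31.4% of all genes tested. These A366 libraries spread more, with an SD of 9.36 CPM against 1.88. CYBA rose by 0.95 on the log2 scale with A366 (SE 0.15, adjusted p = 0.000756) and was 0.80 higher than with UNC0642 (SE 0.15, adjusted p = 0.00161). The change with UNC0642 was 0.15 (SE 0.15, 95% interval -0.19 to 0.48, adjusted p = 0.873). In Mel92.1 it had 0 to 9 counts per library, and the untreated MP41 level was 562-fold higher by mean CPM, again against 5 counts in all (log2 difference -8.97, 95% interval -11.1 to -6.90, adjusted p = 3.1e-11).

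The rises of NOX4 and CYBA with A366 in MP41 were 2 calls among 2 members tested besides NOX5, in a contrast where 46.0% of all genes tested passed, 22.5% higher and 23.5% lower. With UNC0642 in MP41, 0.241% of genes passed and 0 of these 2 by edgeR, by DESeq2 or by voom, none with an unadjusted p under 0.05. Without the 4 libraries A366 gave 0.50 (SE 0.09, adjusted p = 0.000947) for NOX4 and 1.00 (SE 0.15, adjusted p = 0.000176) for CYBA, where 35.7% of genes were called, and against UNC0642 0.45 (adjusted p = 0.00221) and 0.85 (adjusted p = 0.000567). As labelled the values were -1.06 (adjusted p = 0.629) and -0.57 (adjusted p = 0.806), where 32.8% were called, and against UNC0642 -1.12 (adjusted p = 0.617) and -0.71 (adjusted p = 0.762), because 2 of the 3 libraries then held at most 6 counts of either gene.

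CYBB, the catalytic subunit of the phagocyte oxidase, was at the edge of detection in Mel92.1. It held 20, 8 and 6 counts with DMSO (0.409, 0.213 and 0.155 CPM), 0, 12 and 23 with UNC0642 (0.00, 0.307 and 0.431 CPM) and 13, 14 and 8 with A366 (0.316, 0.305 and 0.162 CPM). The 3 groups overlapped. The log2 changes were 0.05 with UNC0642 (SE 0.87, 95% interval -1.89 to 1.99, adjusted p = 0.989) and -0.01 with A366 (SE 0.85, 95% interval -1.91 to 1.89, adjusted p = 1.00). A366 against UNC0642 gave -0.06 (SE 0.86, 95% interval -1.99 to 1.87, adjusted p = 0.983). As labelled these A366 differences were -1.23 from DMSO and -1.23 from UNC0642 (adjusted p = 0.566 and 0.563), and without the 4 libraries both were 0.27 (adjusted p = 1.00). In MP41 all 3 DMSO libraries were at 0, so Mel92.1 was at least 3.89-fold higher, computed against 3 counts in each MP41 library (adjusted p = 0.00755 with all 18 libraries, 0.0501 as labelled and 0.0246 without the 4).

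In MP41 UNC0642 replicate 2, CYBB had 16 counts (0.333 CPM) while the other 8 MP41 libraries had 0 or 1. Of the leukocyte markers, TYROBP was at 0 in all 18 libraries, whereas in that library PTPRC stood at 0.999 CPM, the highest of the 18, and ITGAM at 0.770, both above CYBB, against 0.304 to 0.889 and 0.0869 to 1.07 in the other MP41 libraries. The 8 markers summed to 26.1 to 184 CPM over the 18 libraries, almost all of it CD68, a lysosomal gene, at 25.9 to 182 CPM. Whether such cells contributed to the CYBB counts was not tested.

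DUOX1 was low in Mel92.1 and lower in MP41. In Mel92.1 it held 13, 7 and 13 counts with DMSO (0.266, 0.186 and 0.335 CPM), 38, 17 and 15 with UNC0642 (2.31, 0.435 and 0.281 CPM) and 16, 24 and 21 with A366 (0.389, 0.523 and 0.426 CPM). The UNC0642 value rests on replicate 1, the library of lowest depth and highest ribosomal RNA share. The change was 1.84 on the log2 scale (SE 0.78, 95% interval 0.09 to 3.59, adjusted p = 0.494) and 0.42 (adjusted p = 0.814) without that library. The part of depth or RNA quality in it was not tested. With A366 all 3 libraries lay above all DMSO libraries, which held for 8.52% of all genes tested in that contrast. The change of 0.76 did not pass (SE 0.79, 95% interval -1.01 to 2.53, adjusted p = 1.00). A366 against UNC0642 gave -1.08 (SE 0.76, 95% interval -2.78 to 0.61, adjusted p = 0.752), and this value turned to 0.34 without UNC0642 replicate 1. As labelled the A366 differences were -0.81 from DMSO and -2.69 from UNC0642 (adjusted p = 0.650 and 0.198), and without the 4 libraries they were 0.56 and -1.33 (adjusted p = 1.00 for both). In Mel92.1, where 0.688% of all genes tested passed with UNC0642 and 0.213% with A366, CYBB and DUOX1 gave 0 calls with either by edgeR, and 0 by DESeq2 or voom. DUOX1 with UNC0642 was the 1 of these 4 tests with an unadjusted p under 0.05 in edgeR (0.0443).

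In MP41 DUOX1 had 0 to 5 counts per library. By mean CPM it was 7.28-fold higher in Mel92.1 with DMSO, against 5 counts in all in MP41, all of them in replicate 1 (log2 difference 2.75, SE 1.19, 95% interval 0.23 to 5.26, adjusted p = 0.0334). This call did not last: the adjusted p was 0.111 as labelled and 0.0843 without the 4 libraries. The call was also lost without Mel92.1 DMSO replicate 1 (adjusted p = 0.0565) or 3 (0.0787) or without MP41 DMSO replicate 2 (0.108) or 3 (0.112).

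**Figure D3:**
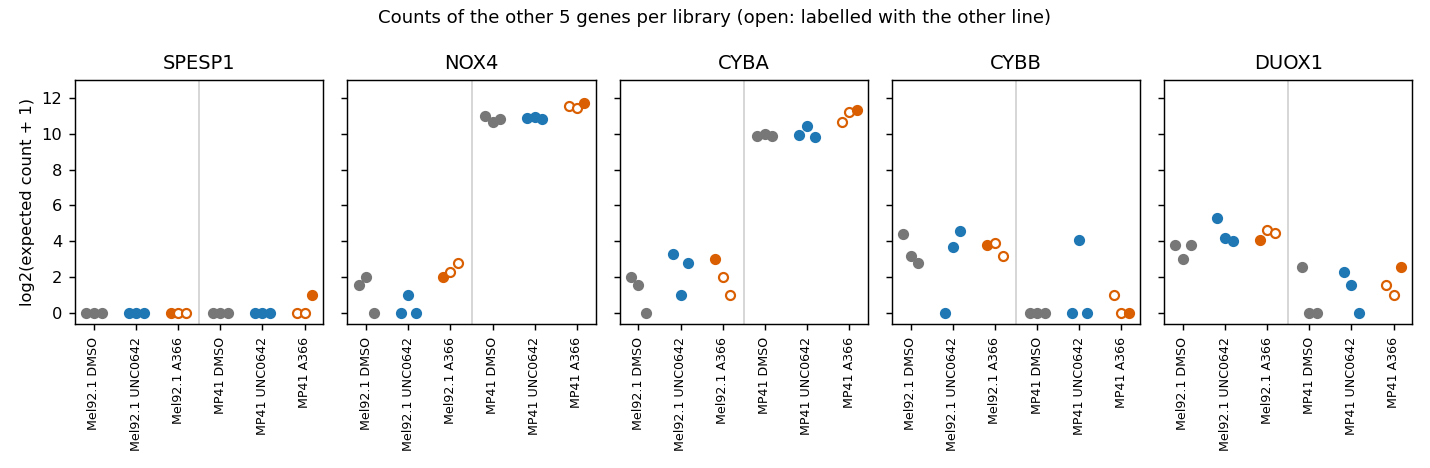
Expected counts of SPESP1, NOX4, CYBA, CYBB and DUOX1 in each library, as log2 of the count plus 1, by cell line and treatment; open circles are the 4 libraries labelled with the other line. NOX4 and CYBA are high in all 9 MP41 libraries and near 0 in Mel92.1, SPESP1 is at 0 in 17 of 18, and CYBB and DUOX1 stay at or below 38 counts.

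Levels of different genes are comparable only per length, here as CPM per kb of the longest annotated transcript. In MP41 with DMSO, NOX4 stood at 9.50, CYBA at 15.2 and NOX5 at 0.914 CPM per kb, so that NOX4 was 10.4 times and CYBA 16.6 times as high as NOX5. Per kb of all exonic bases those ratios were 10.4 and 10.2. With A366, where NOX5 was highest in MP41, the ratios per longest transcript were 6.10 and 12.9. In Mel92.1 with DMSO, NOX5, CYBB and DUOX1 were all low, at 0.0512, 0.0599 and 0.0457 CPM per kb. With A366 NOX5 reached 0.533 CPM per kb there, 8.83 times CYBB and 6.86 times DUOX1, which made it the highest of the 6 genes in treated Mel92.1 on this scale. The NOX5 length is that of NOX5-201, 8592 bp, whereas the next protein-coding transcript has 2804 bp, and which of them was present is not known, so its values per kb would be higher with the shorter one.

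Partner subunits and maturation factors of oxidases were followed in a single list with the further oxidases NOX1, NOX3 and DUOX2. Of 14 such genes, 7 could be tested in Mel92.1 and 6 in MP41, and 0 passed by edgeR with UNC0642 or A366 in Mel92.1 or with UNC0642 in MP41, where 0, 0 and 1 had an unadjusted p under 0.05. DESeq2 called 0 in each, and voom called 1 with A366 in Mel92.1. Over all genes of Mel92.1, DESeq2 called 2.64% for UNC0642 against 1.18% for A366, and voom called 2.84% against 21.2%, a share for A366 far above the 0.213% of edgeR. The shares for UNC0642 in MP41 were 1.2% by DESeq2 and 1.03% by voom. With A366 in MP41, 2 of 6 passed, a share below the 46.0% of all genes, both higher: C17orf62, now named CYBC1, a chaperone of the CYBB–CYBA pair (0.39, SE 0.10, adjusted p = 0.0088), and RAC3, a small GTPase (0.45, SE 0.16, adjusted p = 0.034). The median over the 6 was 0.33, against 0.02 over all genes. In this contrast 35.7% of all genes passed without the 4 libraries and 32.8% as labelled. RAC3 did not pass without the 4 libraries (adjusted p = 0.0571), which left 1 of 8 called, and as labelled 4 of 7 were called. Between the untreated lines, where 69.4% of all genes passed, 7 of 7 were higher in Mel92.1 (5 of 7 as labelled and 5 of 8 without the 4 libraries), by 0.64 for RAC1, at 456 CPM, to 2.72 for RAC2, at 0.689 CPM, with a median of 1.96. RAC2, at 0 to 8 counts in the MP41 DMSO libraries, had too few counts to be tested in the fit of MP41. It entered this comparison through Mel92.1, where it was high. Nothing is read from its being called or from the count of 7 of 7 that includes it. The organizer NOXO1 and activator NOXA1, at 1.63 and 3.29 CPM in untreated Mel92.1, were 2.68 and 1.71 higher on the log2 scale there. The other 7, among them NCF1, NCF4, DUOX2 and the DUOX maturation factors DUOXA1 and DUOXA2, had too few counts in both lines.

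Genes known to regulate NOX5 activity include calmodulins, calmodulin kinases, protein kinase C forms, ABL1, caveolin-1 and HSP90. Of 14 tested in Mel92.1, 1 passed with UNC0642: HSP90AA1, a chaperone that binds NOX5, was 0.50 higher (SE 0.05, adjusted p = 0.00219), at 2197 ± 64.0 CPM (SD, n = 3) against 1550 ± 50.2. It stood at 1900 ± 58.9 CPM with A366, a difference of 0.30 that did not pass (SE 0.05, adjusted p = 0.0802). In MP41, where its level was 4788 CPM with DMSO, the changes were -0.03 and -0.06. As labelled the UNC0642 call was lost (adjusted p = 1.00). With A366 in Mel92.1, 0 passed by edgeR (2 at an unadjusted p under 0.05), 1 by DESeq2 and 4 by voom. Of 15 tested in MP41, 0 passed with UNC0642 by any of the 3 tools (2 at an unadjusted p under 0.05 in edgeR). With A366 6 passed, 1 higher and 5 lower. CALM3, which encodes calmodulin, rose by 0.26. The tyrosine kinase gene ABL1 fell by 0.29, the protein kinase C genes PRKCA by 0.39 and PRKCE by 0.38, the caveolin gene CAV1 by 0.21 and CAMK2D by 0.24. CAV1 lost its call without the 4 libraries (adjusted p = 0.0509) and 5 passed, and as labelled PRKCE lost its call (-0.15, adjusted p = 0.476) and 8 passed. Each of these 2 genes also lost its call when 1 of 4 libraries was left out, namely the library labelled Mel92.1 A366 replicate 3, MP41 DMSO replicate 1 or 3, or MP41 A366 replicate 1, with adjusted p between 0.0646 and 0.128. The median over the 15 was -0.09, and 6 of 15 is a share below the 46.0% of all genes. That share of all genes was 35.7% without the 4 libraries and 32.8% as labelled.

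Genes that remove superoxide and peroxide passed by edgeR with A366 in MP41 and in none of the other 3 contrasts with DMSO, and those that passed were higher. Of 13 tested in each line, 0 passed by edgeR with UNC0642 or A366 in Mel92.1 or with UNC0642 in MP41, with 1 at an unadjusted p under 0.05 in each. With A366 in Mel92.1, DESeq2 called 1 of 13 and voom 6 of 13, where they called 1.18% and 21.2% of all genes, and both called 0 in the other 2 contrasts. With A366 in MP41, 7 passed, all higher: PRDX5 by 0.85 (SE 0.10, adjusted p = 0.00026), SOD3 by 0.82 (SE 0.11, adjusted p = 0.000453), GPX1 by 0.66 (SE 0.12, adjusted p = 0.00129), GPX4 by 0.50, PRDX2 by 0.38, and SOD1 and PRDX6. PRDX5 and PRDX2 are peroxiredoxins, SOD3 is the secreted superoxide dismutase, and GPX1 and GPX4 are glutathione peroxidases, GPX4 being the one that acts on lipid peroxides. The median over the 13 was 0.19, and 22.5% of all genes were called higher. Called in either direction were 35.7% of all genes without the 4 libraries and 32.8% as labelled. The count was 7 of 14, all higher, without the 4 libraries. As labelled 4 of 14 were, with GPX4 at 0.11 (adjusted p = 0.693), PRDX2 at -0.014 (adjusted p = 0.960) and GPX1 at -0.88 (adjusted p = 0.736).

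**Figure D4:**
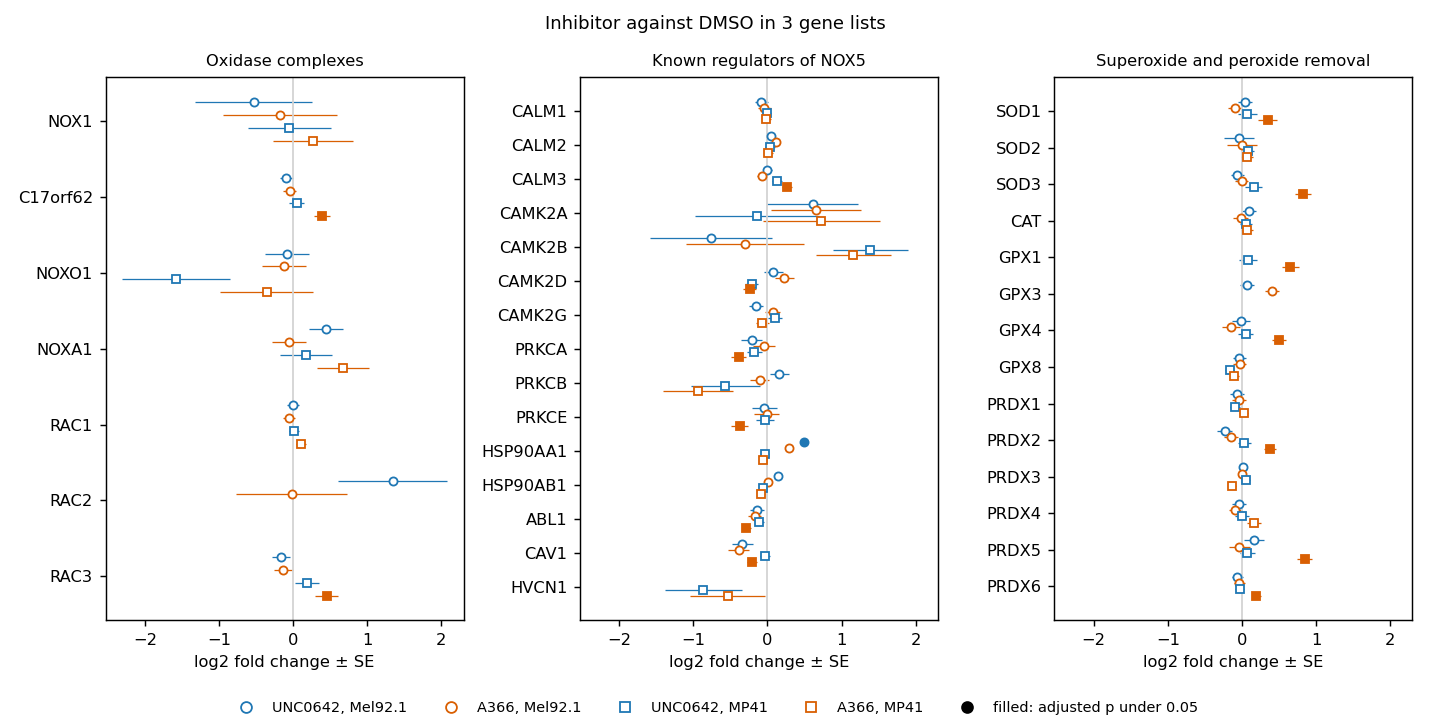
Log2 fold change with its SE for each tested gene of 3 lists, UNC0642 in blue and A366 in orange, Mel92.1 as circles and MP41 as squares, filled where the adjusted p was under 0.05. Filled symbols are nearly all A366 in MP41, with 2, 6 and 7 genes in the 3 lists. HSP90AA1 with UNC0642 in Mel92.1 is the exception.

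Compared with DMSO, genes around NOX5 passed by edgeR with A366 in MP41 and in none of the other 3 contrasts. Of 15 genes of the table within 1 Mb of it, SPESP1 left out, 13 could be tested in each line, and 0 passed by edgeR with UNC0642 or A366 in Mel92.1 or with UNC0642 in MP41, where 2, 0 and 2 had an unadjusted p under 0.05. DESeq2 called 0 in each, and voom called 3 with A366 in Mel92.1 and 1 with UNC0642 in MP41. The nearest upstream gene, ANP32A, 109628 bp away from the NOX5 span, changed by 0.17 and 0.08 in Mel92.1 and by 0.16 and 0.04 in MP41, none of which passed. The nearest downstream gene, the noncoding RNA EWSAT1, 10183 bp away, stood at 0.588 ± 0.185 CPM (SD, n = 3) in Mel92.1 with DMSO, at 1.14 ± 0.496 with UNC0642 and at 1.11 ± 0.270 with A366. UNC0642 gave a log2 difference of 0.98 (SE 0.48, adjusted p = 0.538) in that line, and A366 gave 0.92 (SE 0.48, adjusted p = 1.00). In MP41 it held 6.84, 7.93 and 5.68 CPM and neither change passed.

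With A366 in MP41, 7 of the 13 neighbours passed, 2 higher and 5 lower, where 46.0% of all genes did. KIF23, a kinesin of cell division, fell by 0.54 (SE 0.07, adjusted p = 0.000291). GLCE, an enzyme of heparan sulfate synthesis, fell by 0.61 (SE 0.11, adjusted p = 0.00115), PAQR5 fell by 0.42 and FEM1B fell by 0.33. RPLP1, a ribosomal protein gene, rose by 0.55 (SE 0.09, adjusted p = 0.00098). The other 2 calls were CLN6, higher, and PIAS1, lower. Of all genes, 35.7% passed in this contrast without the 4 libraries and 32.8% as labelled. Leaving out the 4 libraries gave 6 of 13 calls, 1 higher and 5 lower. As labelled 5 of 13 were, 3 higher and 2 lower, and GLCE (-0.39, adjusted p = 0.0686), FEM1B (0.18, adjusted p = 0.474) and PAQR5 (0.32, adjusted p = 0.391) did not pass.

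**Figure D5:**
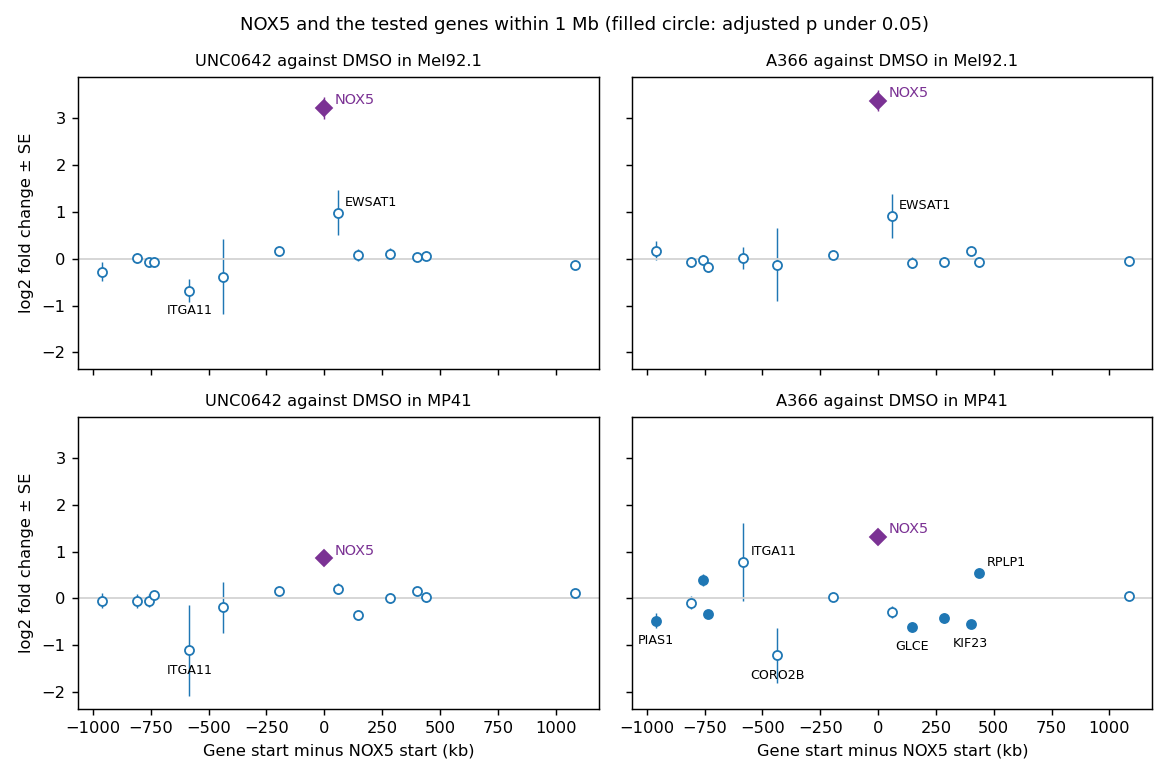
Log2 fold change with its SE for NOX5 (diamond) and the 13 tested genes within 1 Mb (circles, filled where the adjusted p was under 0.05), against the distance of each gene start from the NOX5 start in kb, in 1 panel per inhibitor and line. NOX5 stands at 3.22, 3.37, 0.86 and 1.31, and among these 4 panels its neighbours pass only with A366 in MP41, where 7 do.

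The genes whose pattern over the 18 libraries was most like that of NOX5, by Pearson's r of log2 CPM minus the DMSO mean of the line over 15794 genes, were LINC01366 (0.954), NCKAP5 (0.951), AZGP1 (0.934), SPARC (0.931) and PHF14 (0.923). These points share libraries and depth and hold the group differences, so r is a description. AZGP1, which encodes a secreted zinc-binding glycoprotein, took place 5 within Mel92.1 and 18 within MP41. SPARC took places 15 and 76, NCKAP5 13 and 233, PHF14 19 and 1055 and LINC01366 3 and 1434. AZGP1 held 0.594, 1.17 and 0.876 CPM in Mel92.1 with DMSO, against 7.53, 4.25 and 3.82 CPM under UNC0642 and 5.62, 4.14 and 5.01 CPM under A366. In MP41 it held 2.90, 2.97 and 2.48 CPM with DMSO, against 6.45, 6.26 and 5.89 CPM under UNC0642 and 8.77, 7.73 and 9.95 CPM under A366. Like NOX5, AZGP1 did not overlap between DMSO and either inhibitor in either line, and in MP41 its order was DMSO, UNC0642, A366. Such non-overlap, higher than DMSO, held for 7.42% (UNC0642) and 8.52% (A366) of genes tested in Mel92.1. In MP41 the shares were 9.46% and 31.4%. The study had listed AZGP1, and SLAMF7 named below, with NOX5 among 8 genes for their increase under UNC0642 and A366. The likeness of AZGP1 and SLAMF7 to NOX5 is thus not independent of that selection and serves as a description. In proportion to their level, SPARC and PHF14 moved far less than AZGP1, PHF14 from 45.8 to 61.8 CPM in Mel92.1 and from 72.9 to 86.9 in MP41. Within Mel92.1 alone the most similar gene was SLAMF7 (0.990), and within MP41 alone TCN1 (0.984).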

How the data were processed

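RNA was measured in bulk in 18 libraries. The deposited table holds expected counts per gene, estimated by the authors with RSEM and not normalized for library size. The submitters' processing notes name hg38, Bowtie2 2.1.0 and RSEM 1.2.15, whereas the study's methods name the mouse build mm10, TopHat and FPKM values from Cufflinks, and the sources also differ on oligo-dT selection or removal of ribosomal RNA. The annotation and the handling of strand and overlapping genes are not given in the sources used here. Values that were not whole made up 5.86% to 13.4% of a library, and 0 of those of the 6 genes. The number of table columns not used was 0.

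Counts were rounded and fitted with edgeR 4.0.16 in R 4.3.3 (filterByExpr, TMM factors, quasi-likelihood tests, Benjamini-Hochberg adjustment over all genes tested, threshold 0.05). Each line's 9 libraries were fitted together, and all 18 for comparisons between the lines. SEs came from the fitted weights and moderated dispersion, and intervals from the t distribution. The test was checked on simulated counts. Alternatives were DESeq2 1.42.0, limma 3.58.1 (voom with sample weights), RLE factors, no filter, a replicate block, NOX5 and SPESP1 summed, each library left out, the labels as given, and the 4 exchanged libraries left out. Genes named from the lists were at most 5 per comparison past the threshold, lowest p first, plus the nearest neighbour on each side and the 5 most similar genes. CAMK2D, SOD1, PRDX6, CLN6, PIAS1, RAC1, RAC2, NOXO1, NOXA1 and the genes most similar within a line were named after their values were seen. The 6 genes, the lists and the placement of libraries were chosen with earlier results of these data known. Sequences are from RefSeq promoter windows and the study's primer list.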

Additional observations from a re-analysis of the deposited data

Results flagged for a closer look

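The difference from DMSO was not the same in Mel92.1 and MP41 for 11 of the genes described, in 13 tests of the difference itself (Mel92.1 minus MP41, log2, edgeR quasi-likelihood test, adjusted over all genes by Benjamini-Hochberg). The log2 change of NOX5 in Mel92.1 exceeded that in MP41 by 2.37 (SE 0.204, adjusted p = 7.49e-06) with UNC0642 and by 2.04 (SE 0.202, adjusted p = 2.23e-05) with A366. These NOX5 p-values are not independent of its choice, which used the changes in the same libraries. The same holds for CALM3, C17orf62, KIF23, RPLP1, PRDX2, PRDX5, GPX4 and SOD3, named because they passed with A366 against DMSO in MP41. It also holds for HSP90AA1, named because it passed with UNC0642 in Mel92.1. Their p-values in this test serve as a description. HSP90AA1 differed by 0.527 (adjusted p = 0.00116) with UNC0642 and by 0.333 (adjusted p = 0.0112) with A366, where it changed by 0.499 and 0.296 in Mel92.1 and by -0.0276 and -0.0635 in MP41.

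With A366 the other differences were 1.19 for EWSAT1 (adjusted p = 0.0475) and 0.682 for KIF23 (adjusted p = 0.000904), both with a higher change in Mel92.1. Lower changes in Mel92.1 gave -0.367 for CALM3 (adjusted p = 0.0116), -0.463 for C17orf62 (0.0411), -0.549 for PRDX2 (0.0162), -0.653 for RPLP1 (0.0113), -0.675 for GPX4 (0.0154), -0.853 for SOD3 (0.00327) and -0.912 for PRDX5 (0.00728). Among all genes tested 13.8% passed this test with A366 and 0.601% with UNC0642. The test was read only for the members and the genes already named. Nothing is therefore read from the number that passed beside those shares. The A366 values rest on the placement of the 4 exchanged libraries. Without them, 4 of the 11 differences with A366 passed, those of NOX5, KIF23 (0.771, adjusted p = 0.0347), SOD3 (-0.832, 0.0378) and PRDX5 (-1.11, 0.0408). The other 7 did not: RPLP1 had an adjusted p of 0.063, GPX4 0.0707, PRDX2 0.0868, CALM3 0.106, C17orf62 0.129, HSP90AA1 0.168 and EWSAT1 0.197. As labelled 8 of 11 passed, and SOD3 (-0.268, adjusted p = 0.33), GPX4 (0.261, 0.51) and PRDX2 (0.38, 0.305) did not, the last 2 with the opposite sign. Both differences with UNC0642 passed without the 4 libraries, and 0 of 2 did as labelled (adjusted p = 1.00), where 0.0% of all genes were called.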

How the results depend on the processing

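The stability of 41 values was checked (the members' comparisons and the counts of called list genes). A tested comparison was stable if it kept its side of the threshold and direction, and a count if it stayed within 1.5 times. The untested changes of NOX5 from DMSO were stable if they moved by less than the larger SD of log2 CPM in the groups compared. By these rules 41 were stable with RLE factors and with no filter, 40 with the replicate block and 38 with DESeq2. The number was 37 without the 4 exchanged libraries, 34 with voom weights and 28 as labelled. Summing NOX5 with SPESP1 left 9 of 9 NOX5 values in place.

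As labelled, the change of NOX5 with A366 was 5.05 in Mel92.1 and 0.33 in MP41, A366 against UNC0642 in MP41 reversed to -0.53, and the line difference with UNC0642 stayed at 2.37 but lost its call. NOX4 reversed to -1.06 and -1.12 (A366 against DMSO and UNC0642) and CYBA to -0.57 and -0.71. The fitted line differences of CYBB, 6.54, and DUOX1, 2.76, lost their calls. FEM1B (0.18), PAQR5 (0.32), GPX1 (-0.88) and PRDX2 (-0.014) reversed with A366 in MP41, and GPX4 (0.11), GLCE (-0.39) and PRKCE (-0.15) lost their calls there. Calls became 4 oxidase and 4 removal genes with A366 in MP41, where 32.8% of all genes were called. They became 0 regulators with UNC0642 in Mel92.1, where 0 genes of all tested were higher and 0 lower. Mixing 2 lines in 1 group is the construction of this setting. Without the 4 libraries, NOX5 with A366 in Mel92.1 was 3.25, DUOX1 between the lines 2.77 and CAV1 with A366 in MP41 -0.23, both without a call, and calls became 1 oxidase gene with A366 and 1 neighbour with UNC0642 in MP41.

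DESeq2 called 2 regulators with UNC0642 in Mel92.1, where it called 2.64% of all genes. With A366 there it called 1 regulator and 1 removal gene, and 1.18% of all genes. Voom called 1 oxidase gene, 4 regulators, 6 removal genes and 3 neighbours with A366 in Mel92.1, where it called 21.2% of all genes. With A366 in MP41 it called 4 oxidase and 11 removal genes. In that contrast voom called 5203 genes higher and 5045 lower of 14956 tested. With UNC0642 in MP41 it called 1 neighbour, and 1.03% of all genes. Cause was not tested.

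Replicate numbers shared by the labels did not pair the samples: deviations of same-numbered libraries correlated at -0.14 to 0.15. A replicate block left 1 oxidase gene called with A366 in MP41, because RAC3 had an adjusted p of 0.0557.

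Leaving out 1 library at a time moved DUOX1 between the lines from 2.20 to 6.56, with its call lost in 4 of 18. DUOX1 with A366 against UNC0642 in Mel92.1 ran from -1.56 to 0.34. With A366 in MP41, RAC3, CAV1 and PRKCE lost their calls in 4 of 18 each. With A366 in MP41 the calls were 1 to 3 for oxidase genes and 3 to 6 for regulators. Regulators with A366 in Mel92.1 were 0 to 2 and neighbours with UNC0642 in MP41 0 to 1. NOX5 stayed at 3.20 to 3.27 and 3.31 to 3.43 in Mel92.1, and at 0.79 to 0.98 and 1.25 to 1.44 in MP41.

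Depth limits SPESP1, CYBB and DUOX1, whose highest counts were 1, 23 and 38, and NOX4 and CYBA in Mel92.1.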

Other observations

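The glutathione peroxidase genes GPX1 and GPX3 differed between the untreated lines in opposite directions. GPX1 held 0 to 5 counts in the 9 Mel92.1 libraries, or 0.0645 ± 0.0404 CPM (SD, n = 3) with DMSO, against 142 ± 10.6 CPM in MP41 with DMSO, and the log2 difference was -11.1 (adjusted p = 2.12e-15, edgeR). GPX3, the secreted form, was the reverse, at 35.8 ± 1.75 CPM in Mel92.1 and 0.0723 ± 0.0763 in MP41, where libraries held 0 to 17 counts, with a log2 difference of 8.87 (adjusted p = 2.14e-12, edgeR). Both genes were chosen after their values were seen. Each entered this comparison through the line where it was high. Among all genes tested, 69.4% differed between the untreated lines. Nothing is read from the calls of GPX1 and GPX3, and their adjusted p-values are a description only.

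RAC2, a small GTPase of blood cells, reached 4.25 CPM in Mel92.1 UNC0642 replicate 1 and its group mean was 1.83 ± 2.1 CPM (SD, n = 3) against 0.689 ± 0.208 with DMSO. The same library held the highest DUOX1 value, 2.31 CPM, and the lowest depth.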
